A study of Mus musculus with 8 samples.

Results

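The genes examined were *Atf4*, *Atf5*, *Ddit3*, *Trib3*, *Ppp1r15a*, *Asns*, *Chac1*, *Sesn2*, *Fgf21*, and *Nupr1*, a set of integrated stress response genes together with the stress-induced hormone gene *Fgf21* and the stress-induced nuclear protein gene *Nupr1*. They were chosen by symbol, and all 10 were present among the 48709 genes of every table. RNA-Seq was performed on pancreata of male mice aged 8 weeks, 24 hours after modeling, in 4 groups of 2 libraries that the design text calls biological replicates. The groups were WT mice given saline (WT saline), WT mice given palmitoleic acid and ethanol to induce severe acute pancreatitis by fatty acid ethyl esters (WT FAEE-SAP), mice lacking *Pfkfb3* in the pancreas given saline (cKO saline), and mice of that genotype given palmitoleic acid and ethanol (cKO FAEE-SAP). The cKO mice were Pfkfb3 fl/fl; Pdx1-Cre on a floxed line made in C57BL/6J eggs. The *Pdx1* promoter is active across the pancreatic epithelium, islets included, so the deletion is not limited to acinar cells. Per the methods the WT mice were purchased from a vendor while the floxed line was made separately, and no Cre-only control is described, so genotype and colony cannot be told apart. Mice were fasted before induction, and buprenorphine is described for the FAEE-SAP injections only.

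The integrated stress response starts when 1 of several kinases phosphorylates the translation initiation factor eIF2, which slows general protein synthesis while the *Atf4* mRNA is translated more efficiently. ATF4 then raises transcription of genes for amino acid synthesis, amino acid transport, and tRNA charging, and of CHOP (encoded by *Ddit3*), TRIB3, and the phosphatase subunit GADD34 (encoded by *Ppp1r15a*), which feeds back on eIF2. Acinar cells make more secreted protein than almost any other cell, and PERK (encoded by *Eif2ak3*), the eIF2 kinase of the ER, is needed for a healthy exocrine pancreas. *Fgf21* is expressed in the normal exocrine pancreas, and *Nupr1*, also called p8, was first described as a transcript induced in acinar cells during pancreatitis. Since much of this pathway is controlled through translation and phosphorylation, mRNA levels show only a part of it.

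Library totals worked out from the deposited values were 22.93 to 37.75 M reads. The 9 acinar markers made up 22.13% to 25.62% of the summed RPKM of each library and none was at 0, as the label pancreas implies. Their summed level after scaling was 165552 and 192891 scaled RPKM in WT saline and 55135 and 56473 in WT FAEE-SAP. In the cKO groups it was 223718 and 226461 with saline and 133625 and 148982 with FAEE-SAP. The summed level of 6 neutrophil markers was 1.32 and 2.22 scaled RPKM in WT saline, 58.6 and 53.1 in WT FAEE-SAP, 3.65 and 1.20 in cKO saline, and 19.7 and 12.2 in cKO FAEE-SAP. The part of these markers in the results below was not tested. In a piece of tissue, fewer cells of a type and less RNA per cell cannot be told apart. Scaled RPKM is the deposited RPKM, a level per kilobase of transcript, divided by a factor for each library that sets the median gene equal between libraries. This choice matters here, because without it the median of all genes tested was higher in WT FAEE-SAP than in WT saline by 1.24 on the log2 scale. Every direction below is relative to the median gene. Gene-level values cannot show the deletion of the floxed exons. *Pfkfb3* was at 1.70 and 1.69 scaled RPKM in WT saline, 1.85 and 3.21 in WT FAEE-SAP, 0.880 and 2.10 in cKO saline, and 1.74 and 2.82 in cKO FAEE-SAP, so the genotypes overlapped and these values do not test the labels.

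The first question was what FAEE-SAP did to these genes in WT mice. *Nupr1* rose, *Asns* fell, and *Ddit3*, *Trib3*, and *Sesn2* were higher in both FAEE-SAP libraries than in both saline libraries without passing the test. *Atf4* itself overlapped between the groups. A gene was called at an adjusted p under 0.05 (limma, Benjamini-Hochberg over all genes tested) and a change of at least 2-fold. Of the 9 members tested in WT, 2 were called, beside 6.93% of the 10894 genes tested (3.08% higher and 3.86% lower). A count of 2 among so few genes says little about the set, and each gene is given on its own.

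*Nupr1* encodes a small chromatin protein induced by many stresses. Its level was 256 and 205 scaled RPKM in WT saline and 707 and 719 in WT FAEE-SAP, where the 2 libraries were almost equal and far above both controls. The log2 fold change was 1.63 (SE 0.164, 95% CI 1.23 to 2.03, adjusted p = 0.00721 by limma). It was past the threshold in each fit but 1 of those that left out a library. Without WT FAEE-SAP replicate 2 the log2 fold change was 1.66 with an adjusted p of 0.0649. *Nupr1* was also the most abundant of the 10 genes in every library, at 193 scaled RPKM or more.

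*Asns* encodes asparagine synthetase and is a classical ATF4 target. Its level was 38.2 and 43.4 scaled RPKM in WT saline and 16.2 and 20.1 in WT FAEE-SAP. Both treated libraries were below both controls, and the log2 fold change was -1.18 (SE 0.185, 95% CI -1.63 to -0.72, adjusted p = 0.0240 by limma). As deposited, with no scaling, its log2 fold change was 0.15, so the fall is one relative to the median gene. The call was lost without any 1 of the 4 libraries, with log2 fold changes of -1.29 to -0.98 and adjusted p of 0.0731 to 0.0954.

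The transcription factor genes *Atf4*, *Atf5*, and *Ddit3* were not called. *Atf4*, the central activator, was at 27.9 and 36.5 scaled RPKM in WT saline and 22.9 and 29.8 in WT FAEE-SAP, and the groups overlapped. *Atf5*, a related factor that is also controlled by translation, was at 8.21 and 18.5 in WT saline and 5.70 and 4.98 in WT FAEE-SAP. Both treated libraries were below both controls for *Atf5*. The log2 fold change was -1.20 (SE 0.382, adjusted p = 0.112 by limma) and became 0.11 as deposited. *Ddit3*, which encodes CHOP, a partner and target of ATF4 linked to cell death, was at 0.424 and 0.789 scaled RPKM in WT saline and 1.14 and 1.42 in WT FAEE-SAP. Its log2 fold change was 1.03 (SE 0.331, 95% CI 0.21 to 1.84, adjusted p = 0.114 by limma). These *Ddit3* levels rest on 15 and 32 reads in saline and 91 and 154 reads in FAEE-SAP, and the annotation holds a second, overlapping gene of the same name, so its share of reads is uncertain.

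*Trib3*, *Sesn2*, and *Ppp1r15a* were not called either. *Trib3* encodes a pseudokinase that restrains ATF4 and AKT. It was at 0.205 and 0.696 scaled RPKM in WT saline and 0.852 and 2.55 in WT FAEE-SAP, with no overlap, and the log2 fold change was 1.73 (SE 0.650, adjusted p = 0.157 by limma). *Sesn2* encodes a leucine sensor upstream of mTORC1. It was at 0.515 and 0.827 in WT saline and 1.44 and 1.78 in WT FAEE-SAP, again with no overlap, and the log2 fold change was 1.19 (SE 0.292, adjusted p = 0.0657 by limma). *Ppp1r15a*, whose product directs dephosphorylation of eIF2, was at 3.05 and 2.88 in WT saline and 1.86 and 2.77 in WT FAEE-SAP. Its log2 fold change was -0.38 (adjusted p = 0.393 by limma), and that of *Atf4* was -0.29 (adjusted p = 0.440). Both were positive as deposited, at 0.91 for *Ppp1r15a* and 1.03 for *Atf4*. In all, 7 of the 9 members tested had treated and control libraries that did not overlap, beside 58.8% of all genes tested. The smallest two-sided p that an exact permutation test allows for 2 libraries against 2 is 0.33.

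**Figure D1:**
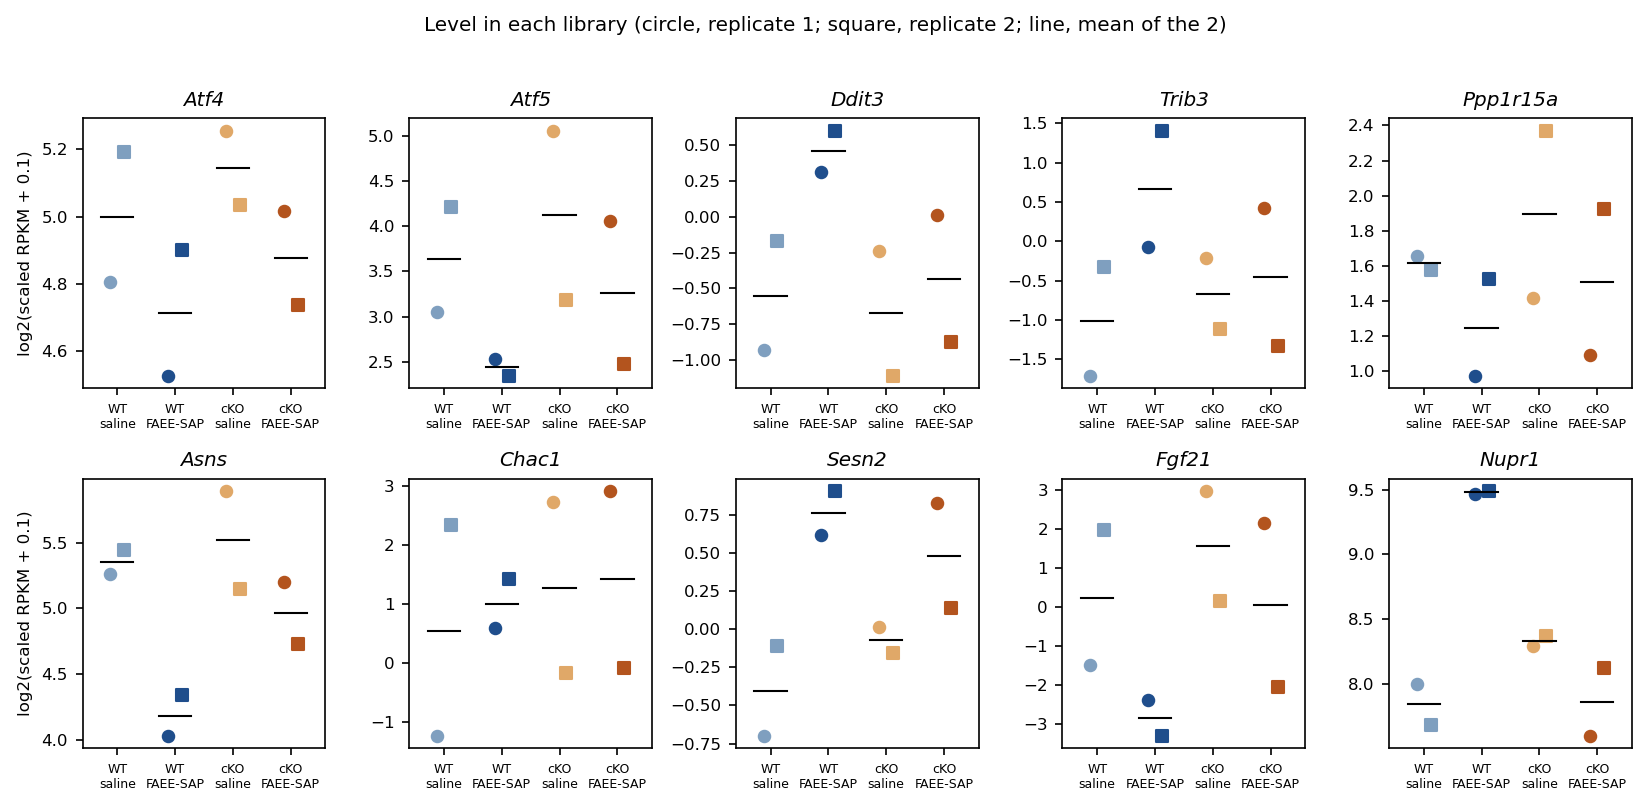
Level of each of the 10 genes in the 8 libraries, as log2(scaled RPKM + 0.1), with a separate vertical scale for each gene and the 4 groups on the horizontal axis. Circles are replicate 1, squares are replicate 2, and the line is the mean of the 2 values. *Nupr1* stands at 707 and 719 scaled RPKM in WT FAEE-SAP, above the other 6 libraries, while *Chac1* and *Fgf21* are spread widely within most groups.

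*Chac1* and *Fgf21* differed many-fold between the 2 libraries of most groups. *Chac1* encodes an enzyme that degrades glutathione and is among the genes most responsive to ATF4 and CHOP. Its level was 0.325 and 4.98 scaled RPKM in WT saline, 1.41 and 2.60 in WT FAEE-SAP, 6.57 and 0.790 in cKO saline, and 7.49 and 0.851 in cKO FAEE-SAP. The 2 libraries of a group differed by 15.3-fold in WT saline, 8.31-fold in cKO saline, and 8.80-fold in cKO FAEE-SAP. Its log2 fold change with FAEE-SAP in WT was 0.48 with a 95% CI of -2.27 to 3.22, and it was 2.31 without WT saline replicate 2 and -1.35 without WT saline replicate 1.

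*Fgf21* encodes a hormone that acts on cells carrying an FGF receptor and beta-klotho. Its level was 0.254 and 3.78 scaled RPKM in WT saline, 0.0906 and 0 in WT FAEE-SAP, 7.72 and 1.01 in cKO saline, and 4.30 and 0.139 in cKO FAEE-SAP. The underlying reads were 5 and 85 in WT saline, 4 and 0 in WT FAEE-SAP, 172 and 20 in cKO saline, and 118 and 4 in cKO FAEE-SAP. The count of 0 allows up to 3 reads, or 0.0498 scaled RPKM in that library, for counting error only. After scaling both WT FAEE-SAP libraries were the lowest of the 8. In reads WT FAEE-SAP replicate 1 tied with cKO FAEE-SAP replicate 2, and as deposited it was above it (0.183 against 0.136 RPKM). The highest value, in cKO saline replicate 1, was 7.66-fold that of its own replicate, and the gap was 14.8-fold in WT saline and 30.8-fold in cKO FAEE-SAP. *Fgf21* reached the minimum level for the test in too few libraries of the WT groups and of the FAEE-SAP groups, so it was not tested there. In cKO its log2 fold change with FAEE-SAP was -1.43 with a 95% CI of -5.66 to 2.80, and that of cKO against WT in saline was 1.25 with a 95% CI of -2.42 to 4.91. No order of the 4 groups can be read from such values.

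The gaps between replicates had a common direction. In WT saline, 4 of the 10 genes (*Chac1*, *Fgf21*, *Trib3*, and *Atf5*) differed by at least 2-fold on the log2(scaled RPKM + 0.1) scale, all 4 higher in replicate 2, beside 5.78% of 11133 genes with such a gap. In cKO saline 3 genes did (*Chac1*, *Fgf21*, and *Atf5*), beside 6.93% of genes, and in cKO FAEE-SAP 4 did (*Fgf21*, *Chac1*, *Trib3*, and *Atf5*), beside 7.53%. All of these were higher in replicate 1. In WT FAEE-SAP only *Trib3* did, higher in replicate 2, beside 4.95% of genes. Counting gaps of any size, 8 of the 10 genes were higher in replicate 2 in each of the WT groups, 6 of them in both, and the same 8 of 10 were higher in replicate 1 of both cKO groups. *Nupr1* differed by no more than 1.44-fold between libraries of a group.

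The other lists of the pathway went the same way in some groups and not in others. Of 13 genes for aminoacyl-tRNA synthetases and the tRNA exporter *Xpot*, all 13 were higher in WT saline replicate 2, in cKO saline replicate 1, and in cKO FAEE-SAP replicate 1 than in the other library of the group, by a median of 0.54, 0.68, and 0.44 on the log2 scale. In WT FAEE-SAP 7 were higher in replicate 1 and 6 in replicate 2. In WT saline replicate 2, cKO saline replicate 1, and cKO FAEE-SAP replicate 1, in that order, 9, 10, and 9 of 12 amino acid and one-carbon synthesis genes were higher than in the other library, and 13, 15, and 9 of 16 genes of the ATF6 and XBP1 branches were. The counts were 5, 8, and 7 of 9 amino acid transporters, 8, 11, and 7 of 18 genes for eIF2, eIF2B, the eIF2 kinases, and their regulators, and 9, 11, and 8 of 16 other ATF4 and CHOP targets. Over all 11133 genes they were 5293, 5749, and 5628. In WT FAEE-SAP the genes higher in replicate 2 were 7 of 12 for synthesis, 7 of 9 transporters, 10 of 18 of the eIF2 list, 13 of 16 other ATF4 and CHOP targets, and 13 of 16 of the ATF6 and XBP1 branches, beside 5353 of all genes. The median gap over all 11133 genes was 0.25, 0.27, and 0.28 in the first 3 of these groups and 0.28 in WT FAEE-SAP. The summed level of 5 adipocyte markers was 23.0 and 36.4 scaled RPKM in replicates 1 and 2 of WT saline, 53.2 and 70.4 in WT FAEE-SAP, 45.1 and 23.8 in cKO saline, and 58.9 and 18.1 in cKO FAEE-SAP. In the same order the sum of 6 macrophage markers was 52.0 and 65.0, 85.7 and 61.1, 68.3 and 62.5, and 81.3 and 69.3, and that of 5 lymphoid markers was 6.91 and 14.7, 11.1 and 8.404, 6.42 and 6.25, and 12.1 and 4.70. WT FAEE-SAP held too few *Fgf21* reads to order its libraries. In the other 3 groups, the library with more *Fgf21* also had the larger sum of macrophage, neutrophil, lymphoid, and adipocyte markers in 3 of 3, of duct, fibroblast, and endothelial markers in 2 of 3, and of acinar and islet markers in 1 of 3. The part of these markers was not tested. Genes of 1 library share its depth and composition, so these counts describe the libraries and carry no test.

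**Figure D2:**
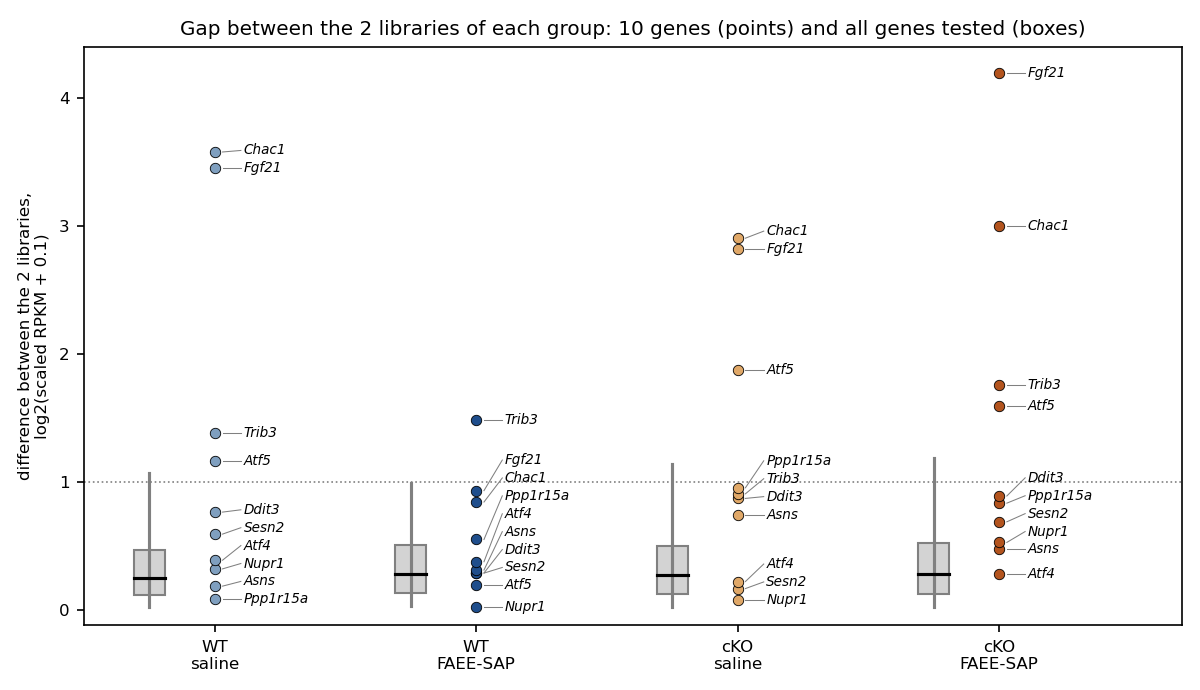
Difference between the 2 libraries of each group on the log2(scaled RPKM + 0.1) scale, without its sign. Points are the 10 genes, and each grey box spans the 25th to the 75th percentile of the 11133 genes tested, with the median as a black line and the 5th and 95th percentiles as the ends of the grey line. The dotted line marks a 2-fold difference. *Chac1* and *Fgf21* lie above the 95th percentile in 3 of the 4 groups.

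Genes of amino acid and one-carbon synthesis are among the best known targets of ATF4. Of the 11 on that list tested with FAEE-SAP in WT, 7 fell and 4 were not called, beside 3.86% of all genes tested called lower. The list was chosen with earlier results of these data known, so this count is no test of it. The median log2 fold change was -1.86, beside 0.02 over all genes tested. *Aldh1l2*, a mitochondrial folate enzyme, had the largest fall. It was at 3.97 and 5.70 scaled RPKM in WT saline and 0.129 and 0.257 in WT FAEE-SAP. The log2 fold change was -4.19 (SE 0.330, adjusted p = 0.00357 by limma). *Cth*, which makes cysteine by transsulfuration, was at 2.45 and 5.06 in saline and 0.193 and 0.249 in FAEE-SAP (log2 fold change -3.59). *Pycr1*, the last enzyme of proline synthesis, was at 3.37 and 4.50 in saline and 0.400 and 0.321 in FAEE-SAP (log2 fold change -3.19). *Mthfd2* fell by 2.07 and *Cbs* by 1.86 on the log2 scale. The log2 fold changes of the 7 were also negative as deposited, where the median of the list was -0.55 and only *Aldh1l2*, *Cth*, and *Pycr1* of the 7 were called. As deposited 3 of the 11 were higher, and 1 of them, *Got1*, named after its values were seen, was called higher (1.27, adjusted p = 0.00437 by limma). Over all lists 15 genes were called in WT, and 3 to 8 were when any 1 of the 4 libraries was left out.

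The other lists held few called genes, to be read beside the 6.93% called over all genes tested. Among 8 amino acid transporters tested, *Slc38a2*, a glutamine carrier, fell by 1.36 on the log2 scale and no other was called. Among the 13 tRNA genes, *Xpot* fell by 1.02 and *Wars*, for tryptophanyl-tRNA synthetase, rose with a log2 fold change of 1.19. *Wars* was at 8.87 and 13.02 scaled RPKM in WT saline and 27.8 and 21.8 in WT FAEE-SAP, and it is also known as an interferon-induced gene. Of 16 other ATF4 and CHOP targets tested, *Cebpb*, a transcription factor that dimerizes with ATF4 and acts in acute inflammation, rose (log2 fold change 1.32) and no other was called. None of the 18 genes for eIF2, its exchange factor eIF2B, the eIF2 kinases, and their regulators was called, and *Eif2ak3*, for PERK, was at 14.0 and 11.8 scaled RPKM in WT saline and 12.7 and 10.5 in WT FAEE-SAP. Of 16 genes of the ATF6 and XBP1 branches of the unfolded protein response, which run parallel to PERK, *Xbp1* rose (log2 fold change 1.39), and *Edem1* and *Atf6* fell by 1.28 and 1.05. As deposited, the log2 fold changes of *Xpot*, *Edem1*, and *Atf6* were 0.28, 0.04, and 0.25, so these 3 fell only relative to the median gene. That of *Slc38a2* was -0.047 as deposited and was not called there.

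Of the 3 genes tested for FGF21 receptors and related hormones, only *Klb* was called. *Klb*, which encodes the coreceptor beta-klotho, was at 3.49 and 2.83 scaled RPKM in WT saline and 0.931 and 0.891 in WT FAEE-SAP. It fell by 1.71 on the log2 scale (SE 0.222, adjusted p = 0.0145 by limma), and its log2 fold change was -0.45 as deposited. *Fgfr1*, the receptor that pairs with it, was at 2.54 and 2.33 in WT saline and 2.74 and 3.85 in WT FAEE-SAP and was not called (adjusted p = 0.336 by limma). *Fgfr3*, another receptor, was not called either, with a log2 difference of -1.02 and an adjusted p of 0.0661, and was named after its values were seen. In cKO, *Klb* was at 3.08 and 3.75 in saline and 2.05 and 3.03 in FAEE-SAP, where it was not called.

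**Figure D3:**
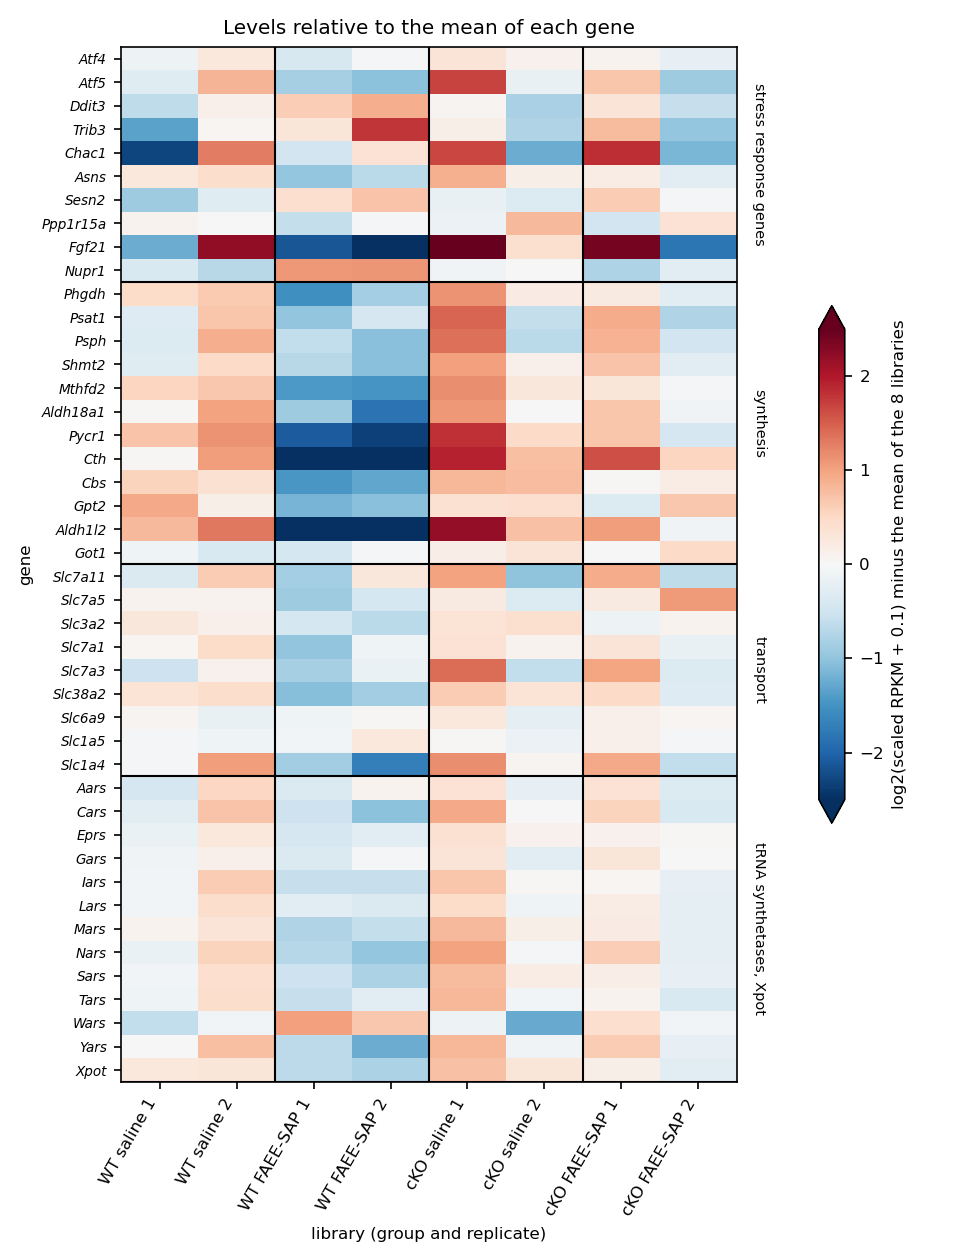
Levels of the 10 genes and of the listed synthesis, transport, and tRNA genes in the 8 libraries, as log2(scaled RPKM + 0.1) minus the mean of the gene over the libraries. Red is above and blue below that mean, and the color scale is cut off at its ends. *Aldh1l2*, *Cth*, and *Pycr1* are lowest in the 2 WT FAEE-SAP libraries, *Nupr1* is highest there, and cKO saline replicate 1 is red for most genes shown.

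The second question was whether the cKO pancreas changed in the same way. With FAEE-SAP against saline in cKO, 8 of the 10 genes could be tested and 0 were called by limma. The background there was 0.0531% of 9423 genes (5 genes, all higher), with 888 genes at an unadjusted p under 0.05. *Nupr1* was at 313 and 330 scaled RPKM in cKO saline and 193 and 278 in cKO FAEE-SAP, so both treated libraries were below both controls. Its log2 fold change was -0.44 with a 95% CI of -0.99 to 0.11 (adjusted p = 0.571 by limma) and 0.18 as deposited. The difference of this response from that in WT has its own test below. *Asns* was at 59.3 and 35.4 in cKO saline and 36.6 and 26.4 in cKO FAEE-SAP, with a log2 fold change of -0.53 and a 95% CI of -1.41 to 0.35. As deposited that of *Asns* was 0.09. *Sesn2* was at 0.908 and 0.799 in saline and 1.67 and 1.002 in FAEE-SAP, both higher, with a log2 fold change of 0.57 (adjusted p = 0.585 by limma).

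*Atf4* was at 38.1 and 32.7 scaled RPKM in cKO saline and 32.3 and 26.5 in cKO FAEE-SAP. Both treated libraries were lower by these levels, scaled over all 8 libraries, but overlapped with saline when only the 4 cKO libraries were scaled for the test. The log2 fold change of *Atf4* in cKO was -0.24 (adjusted p = 0.713 by limma). *Atf5*, at 33.2 and 8.96 in saline and at 16.6 and 5.44 in FAEE-SAP, overlapped. *Ppp1r15a* was at 2.57 and 5.07 in saline and 2.03 and 3.69 in FAEE-SAP. *Ddit3*, at 0.747 and 0.363 and at 0.910 and 0.445, and *Trib3*, at 0.763 and 0.361 and at 1.24 and 0.296, were too low in the cKO libraries to be tested. In the scaling of the test, 2 of the 8 members tested in cKO did not overlap between saline and FAEE-SAP (*Nupr1* and *Sesn2*), beside 43.2% of all genes tested. None of the genes on the other lists was called in cKO.

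Comparing the genotypes directly under FAEE-SAP, *Nupr1* was lower in cKO. It was at 193 and 278 scaled RPKM in cKO and 707 and 719 in WT. The log2 fold change was -1.63 (SE 0.218, 95% CI -2.17 to -1.09, adjusted p = 0.0387 by limma). It was the 1 member called of 9 tested, beside 1.27% of 11008 genes called (0.409% lower). The call depended on the WT libraries and on the fit. Without WT FAEE-SAP replicate 1 the adjusted p was 0.145, without replicate 2 it was 0.300, with no filter on low genes it was 0.171, and without the intensity trend it was 0.0833, while the log2 fold change stayed between -1.91 and -1.34 with any library left out.

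*Asns* was higher in both cKO libraries (log2 fold change 0.77, SE 0.235, adjusted p = 0.176 by limma, and -0.19 as deposited) and *Ddit3* was lower in both (-0.93, SE 0.364, adjusted p = 0.243). *Trib3* overlapped between the genotypes, with a log2 fold change of -1.18 and a 95% CI of -2.97 to 0.62. Thus 3 of the 9 members tested did not overlap, beside 51.8% of all genes tested. Amino acid and one-carbon synthesis genes were among those called. All 11 tested had higher means in cKO than in WT, with a median log2 fold change of 1.48 beside -0.01 over all genes. Of them 4 were called, beside 1.27% of all genes tested. This list was chosen with earlier results of these data known, so its count is no test of it. Of 9 transporters 8 were higher and 1 lower (median 0.61), and of 13 tRNA genes 12 were higher and 1 lower (median 0.50). Other ATF4 and CHOP targets were 7 higher and 9 lower (median -0.465), and none of these other lists held a called gene. *Cth* was at 7.54 and 3.49 scaled RPKM in cKO FAEE-SAP (log2 fold change 4.16) and *Aldh1l2* at 4.67 and 2.08 (log2 fold change 3.63). For *Mthfd2* and *Cbs* the log2 fold changes were 1.58 and 1.48. As deposited these 4 log2 fold changes were 0.53 (*Cbs*) to 3.31 (*Cth*), the calls of *Mthfd2* and *Cbs* were lost, 2 of the 11 genes were lower in cKO, and the median of the list was 0.53. With quantile normalization the calls of *Mthfd2* and *Aldh1l2* were lost. When any 1 of the 4 libraries was left out 0 to 2 of these lists' genes were called. These values share their WT FAEE-SAP libraries with the comparison of treatments in WT.

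**Figure D4:**
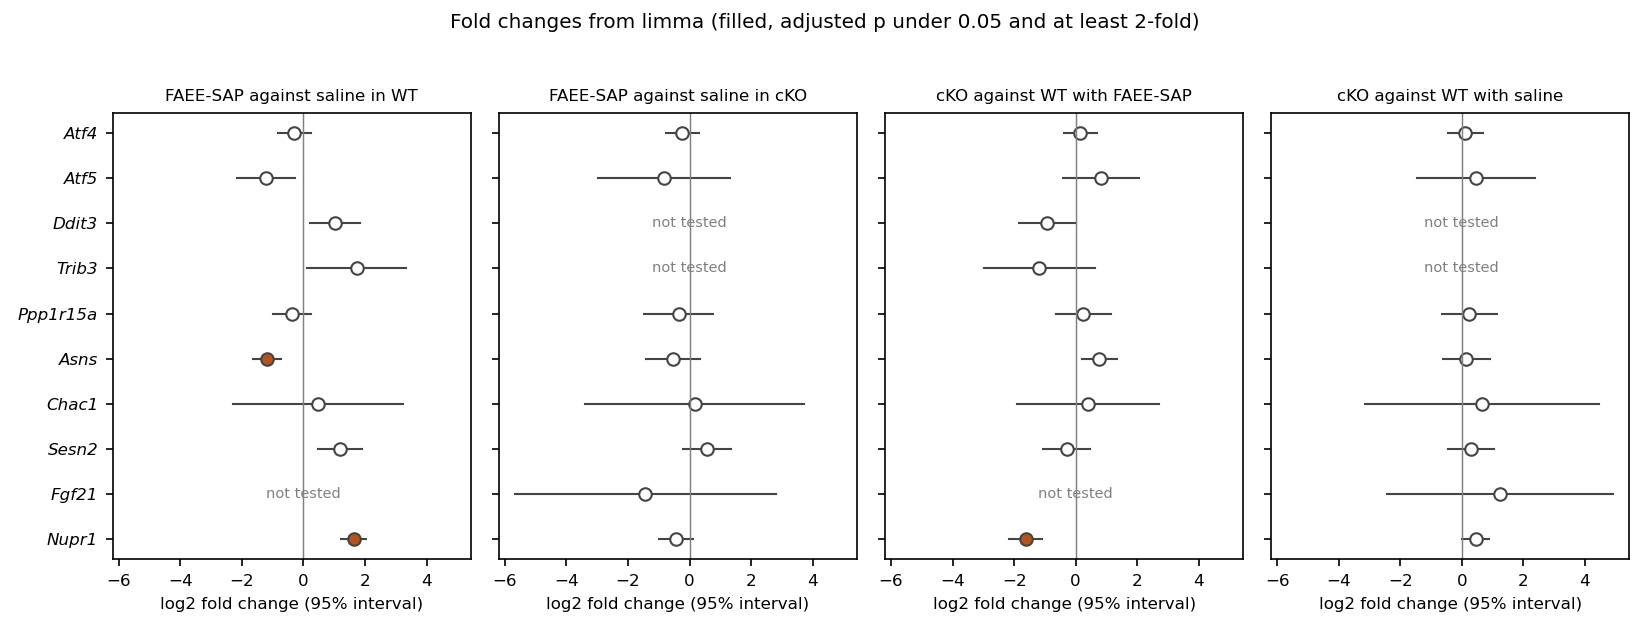
Log2 fold changes of the 10 genes with their 95% intervals from limma in the 4 comparisons of groups. A filled point is a gene with an adjusted p under 0.05 and at least a 2-fold change, and "not tested" marks a gene under the minimum level. *Nupr1* is filled at 1.63 in the first panel and at -1.63 in the third, and the intervals of *Chac1* and *Fgf21* are the widest.

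In saline, no gene was called between the genotypes. Of 8 members tested, 0 were called by limma, beside 0 of 8715 genes called and 187 at an unadjusted p under 0.05. *Nupr1* was at 256 and 205 scaled RPKM in WT and 313 and 330 in cKO, with a log2 fold change of 0.46, a 95% CI of 0.02 to 0.90, and an adjusted p of 0.999 by limma. It was the 1 member whose libraries did not overlap, beside 27.9% of all genes tested. The interval of *Asns* was -0.62 to 0.90, and that of *Atf4* was -0.45 to 0.69.

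The difference of the FAEE-SAP response between the genotypes was tested over all 8 libraries. None of the 10 genes was called by limma, beside 0.0719% of 11133 genes (8 genes, with 1398 at an unadjusted p under 0.05). *Nupr1* came nearest, with a difference of log2 fold changes (cKO minus WT) of -2.11 (SE 0.287, 95% CI -2.78 to -1.43, unadjusted p = 0.000128 and adjusted p = 0.0740 by limma). It passed the threshold as deposited (-2.77, adjusted p = 0.0124) and with quantile normalization (-2.495, adjusted p = 0.0271). It also passed at an RPKM minimum of 2 (-2.03, adjusted p = 0.0382). With the WT saline numbers exchanged in a replicate block, added after the data were seen, it passed as well (adjusted p = 0.0234 by limma). It did not with the replicate block (adjusted p = 0.156), with no filter on low genes (0.199), or with any 1 library left out (0.1198 to 0.277). The differences for *Asns*, *Sesn2*, *Ddit3*, and *Trib3* were 0.61, -0.62, -0.77, and -1.48, each with a 95% CI that included 0. The difference for *Asns* was -0.05 as deposited.

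The genes most like *Fgf21* and *Nupr1* over the 8 libraries were found by the mean absolute difference of their centered log2 profiles among 7382 genes with a mean of at least 1 scaled RPKM. For *Fgf21* they were *Ighv12-3* (1.01), *Gm15441* (1.01), and *Pycr1* (1.05), beside a median of 2.06 over all genes compared. For *Nupr1* they were *Tmem102* (0.151), *Cldn3* (0.167), and *Hbs1l* (0.185), beside a median of 0.607. *Cldn3*, a tight junction claudin, was at 16.8 and 12.2 scaled RPKM in WT saline and 34.9 and 40.8 in WT FAEE-SAP, and at 13.2 and 15.9 and at 11.3 and 15.9 in the cKO groups. A value near 0 means a profile of nearly the same shape. The measure grows with the spread of a gene itself, so the values for *Fgf21* and *Nupr1* are not comparable with each other.

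The 10 genes sit on 6 chromosomes of GRCm38, and 4 of them (*Atf5*, *Ppp1r15a*, *Fgf21*, and *Nupr1*) are on chromosome 7. *Fgf21* is at chr7:45613886-45615490 and *Ppp1r15a* at chr7:45522916-45526268, both on the minus strand, and *Nupr1* is at chr7:126623249-126630861, also on the minus strand. Upstream sequence was examined because ATF4 and CHOP bind a composite C/EBP-ATF element, of which TGATGNAA is the core. In the 250 bases before the RefSeq start, read on both strands, this core was present for 4 of the 10 genes (*Chac1*, *Asns*, *Fgf21*, and *Nupr1*), beside 3.91% of 27025 genes with a promoter in the RefSeq GRCm38.p6 table. The palindromic cAMP response element TGACGTCA was present for *Ppp1r15a* only, beside 1.77% of genes. The members were chosen as genes of this response, so these comparisons with all genes are no test. The sequences with the core are shown 5′ to 3′ along each gene, with the matching bases in capitals, because these 4 genes share it. For *Asns* and *Nupr1* the match lies in an exon of at least 1 annotated transcript, and 30 bases around it are shown.
*Chac1* (chr2:119350992-119351228, plus strand): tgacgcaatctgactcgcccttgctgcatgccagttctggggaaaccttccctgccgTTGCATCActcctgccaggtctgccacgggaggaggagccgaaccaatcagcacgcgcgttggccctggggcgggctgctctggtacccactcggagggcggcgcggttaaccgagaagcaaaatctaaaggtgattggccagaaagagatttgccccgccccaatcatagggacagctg
*Fgf21* (chr7:45615491-45615740, minus strand): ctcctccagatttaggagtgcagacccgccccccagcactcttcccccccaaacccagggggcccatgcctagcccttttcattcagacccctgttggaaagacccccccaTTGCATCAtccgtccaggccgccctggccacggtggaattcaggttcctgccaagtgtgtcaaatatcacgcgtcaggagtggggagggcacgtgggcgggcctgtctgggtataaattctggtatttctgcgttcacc
*Asns* (chr6:7693214-7693243, minus strand): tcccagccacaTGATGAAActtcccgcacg
*Nupr1* (chr7:126625562-126625591, minus strand): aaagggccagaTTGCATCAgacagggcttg

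The match began 193 bases before the start for *Chac1*, 139 for *Fgf21*, 110 for *Nupr1*, and 23 for *Asns*. In *Chac1*, *Fgf21*, and *Nupr1* the matching bases were the same 8, with the core on the opposite strand, and in *Asns* it was on the strand of the gene. In WT FAEE-SAP against WT saline, these 4 genes included the 1 member called higher (*Nupr1*) and the 1 called lower (*Asns*). The other 2, *Chac1* and *Fgf21*, had the largest gaps between the WT saline replicates. A match of this length is a description of the sequence and not a binding site shown by these data.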

How the data were processed

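RNA was extracted from pancreas and sequenced as paired-end, directional RNA-Seq libraries. Per the labels and the study's methods, the authors filtered reads with fastp and mapped them to GRCm38.p6 in CLC Genomics Workbench, and deposited RPKM, a read level per kilobase of exon that allows for sequencing depth. Each table held 48709 genes. How RPKM was computed is not given in the sources used here. No file held counts. Reads per gene were worked out with exon lengths from GENCODE vM21 for 46325 genes (95.1%), and 84.11% to 85.58% of values under 20 reads came out whole within 0.1, so reads given are approximate. No 2 libraries were identical (0 pairs).

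Levels are RPKM with all 8 libraries scaled by the median of ratios. For tests, the libraries of each comparison were scaled in the same way, genes with a deposited RPKM of at least 0.5 in at least 2 libraries were kept, and log2(scaled RPKM + 0.1) was tested with limma 3.58.1 (R 4.3.3) with an intensity trend. Fold changes on this scale understate the change of low genes. The fits were tested on simulated data. The simulated errors were normal, independent between genes, and drawn from the spread that limma fitted. Deviations that the genes of a library share were not simulated, so the shares below may not hold for the real libraries. Of genes changed 4-fold and 8-fold, 71% and 86% were recovered for FAEE-SAP against saline in WT (10258 genes), 56% and 88% for the same in cKO (8985 genes), 75% and 96% for cKO against WT with FAEE-SAP (10583 genes), and 69% and 93% for saline (8434 genes). Unchanged genes made up 6.55%, 5.88%, 9.04%, and 4.71% of the calls. The study's methods name a 2-fold minimum and a p threshold without saying whether p was adjusted, and adjusted p was used here. P-values rest on 2 mice per group, with the variance of each gene drawn by limma toward a trend over all genes tested.

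The members, gene lists, and markers were chosen with earlier results of these data known. Named genes were the 10 members, up to 5 called genes of each list per comparison by size of change, the 3 genes most like *Fgf21* and *Nupr1*, and *Klb*, *Fgfr1*, and *Eif2ak3*. Genes named after their values were seen are marked as such. Promoters were the RefSeq windows of all 10 members, and *Atf5* had 2. Alternatives were other scalings, filters, pseudocounts, models, and thresholds, and fits without each of the libraries. Voom on the worked-out reads and a crossed block were added after the data were seen.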

Additional observations from a re-analysis of the deposited data

Results flagged for a closer look

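*Nupr1* was flagged because every library moved one way in WT and the opposite way in cKO. With FAEE-SAP both WT libraries (707 and 719 scaled RPKM) were above both WT saline libraries (256 and 205), and both cKO libraries (193 and 278) were below both cKO saline libraries (313 and 330). The difference of the 2 log2 fold changes was -2.11 (adjusted p = 0.0740 by limma over all genes), so the test of the difference missed the threshold. It passed as deposited (adjusted p = 0.0124), with quantile normalization (0.0271), and at an RPKM minimum of 2 (0.0382). With the WT saline numbers exchanged in a replicate block, added after the data were seen, it also passed (adjusted p = 0.0234 by limma). It did not with the replicate block (0.156), with no filter (0.199), or with any 1 library left out (0.1198 to 0.277). Of 9338 genes tested in both genotypes, 537 (5.75%), *Nupr1* included, moved in opposite directions without overlap. As deposited, with no scaling, the log2 fold change of *Nupr1* in cKO was 0.18 instead of -0.44.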

How the results depend on the processing

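Over all alternatives, 705 member fold changes kept their direction and their side of the threshold, 67 reversed, 17 passed it newly, and 11 no longer passed it. The other thresholds, the fit without the trend, and the replicate block cannot change a fold change, so part of the 705 was fixed in advance. Most of the 705 were genes not called as reported that stayed so, and the count does not measure stability. The number of members called with FAEE-SAP in WT (2) was 5 as deposited, 1 with quantile normalization, 1 with no filter, and 6 at an unadjusted p. For cKO against WT with FAEE-SAP (1) it was 3 as deposited, 0 with no filter, and 0 without the trend. For the interaction (0) it was 1 as deposited, with quantile normalization, with an RPKM minimum of 2, and at an unadjusted p, each time *Nupr1*. The same held with the WT saline numbers exchanged in the replicate block. In cKO and between genotypes in saline it was 0 throughout. As deposited, 98.8% of the 7270 genes called in WT were higher, against 44.4% of 755, and 1.65% of the 4427 called between genotypes with FAEE-SAP were higher, against 67.9% of 140. The number of members with their highest group mean in WT FAEE-SAP was 4, and 7 as deposited.

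As deposited these log2 fold changes reversed. In WT they were 1.03 (*Atf4*), 0.11 (*Atf5*), 0.15 (*Asns*), and 0.91 (*Ppp1r15a*). In cKO they were 0.38 (*Atf4*), 0.092 (*Asns*), 0.24 (*Ppp1r15a*), and 0.18 (*Nupr1*). For cKO against WT with FAEE-SAP they were -0.81 (*Atf4*), -0.13 (*Atf5*), -0.52 (*Chac1*), -0.19 (*Asns*), and -0.68 (*Ppp1r15a*). In saline they were -0.16 (*Atf4*), -0.14 (*Asns*), and -0.015 (*Ppp1r15a*), and for the interaction -0.65 (*Atf4*), -0.31 (*Atf5*), and -0.053 (*Asns*). Quantile normalization gave -0.005 for *Atf4* between genotypes with FAEE-SAP, and -0.016 for *Atf4* and 0.051 for *Ppp1r15a* in the interaction. The interaction of *Atf4* was -0.012 with a trimmed mean and -0.051 with no filter, that of *Ppp1r15a* 0.056 at an RPKM minimum of 2, and that of *Chac1* 0.042 with a pseudocount of 1. None of these genes was called in the comparison as reported except *Asns* in WT, and the scaling's shift of all genes is the construction of the first group.

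With each library left out, members called ranged from 0 to 2 in WT and from 0 to 1 between genotypes with FAEE-SAP. The number of genes called in WT, 755 with all libraries, was 97 to 491 in these fits. Reversed fold changes ranged, in WT, from -1.35 to 2.31 (*Chac1*). In cKO they ranged from -1.76 to 0.12 (*Atf5*), -1.31 to 1.72 (*Chac1*), -0.83 to 0.12 (*Ppp1r15a*), and -3.42 to 0.67 (*Fgf21*). Between genotypes with FAEE-SAP they ranged from -0.06 to 0.33 (*Atf4*), -1.10 to 1.90 (*Chac1*), -0.63 to 0.036 (*Sesn2*), and -0.19 to 0.70 (*Ppp1r15a*). In saline they ranged from -0.11 to 0.33 (*Atf4*), -0.48 to 1.39 (*Atf5*), -1.10 to 2.40 (*Chac1*), -0.23 to 0.51 (*Asns*), -0.016 to 0.59 (*Sesn2*), -0.23 to 0.72 (*Ppp1r15a*), and -0.44 to 2.90 (*Fgf21*). In the interaction they ranged from -0.18 to 0.21 (*Atf4*), -0.61 to 1.27 (*Atf5*), -2.11 to 1.47 (*Chac1*), -0.51 to 0.45 (*Ppp1r15a*), and -0.53 to 3.67 (*Fgf21*). *Atf5* in WT was called without WT saline replicate 1 (-1.78, adjusted p = 0.0331) and *Chac1* without replicate 2 (2.31, adjusted p = 0.0460).

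Replicate numbers did not pair the mice by any label, and deviations of same-numbered libraries correlated across genes at -0.175 between WT groups, 0.45 between cKO groups, 0.313 with FAEE-SAP, and -0.395 with saline. With the replicate block, 3 members were called in WT (*Trib3* added, adjusted p = 0.0420 by limma), 0 in cKO, 1 between genotypes with FAEE-SAP, 0 in saline, and 0 for the interaction, and genes called went from 755 to 442 in WT, from 5 to 52 in cKO, from 140 to 568 between genotypes with FAEE-SAP, and from 8 to 0 for the interaction. With the WT saline numbers exchanged, an alternative added after the data were seen, members called were 2 in WT, 0 in saline, and 1 for the interaction. The member called for the interaction was *Nupr1*, and genes called there went from 8 to 68.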
